A study of Mus musculus with 10 samples.

Results

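The pericentral hepatocytes that surround the central vein of the liver lobule carry a group of genes that depend on Wnt signalling, and 10 of these genes were followed here: Glul, Oat, Slc1a2, Rhbg, Lgr5, Axin2, Tbx3, Rnf43, Znrf3 and Lect2. A gene was measured where a probe set of the array carried its symbol and no other, and 8 of the 10 genes had such a probe set, each of them 1, among 23332 probe sets and 14860 named genes in all. The only probe set that listed Slc1a2 also listed 2900019G14Rik, and no probe set in the table listed Znrf3, so neither gene has a value here. Whole livers of male Balb/c mice, aged 8 weeks at purchase, were profiled after 6 weeks of carbon tetrachloride (CCl4, a liver toxin that causes fibrosis on repeated dosing) or 6 weeks of oil, the vehicle. The methods describe repeated injections and name olive oil as the vehicle, and all mice were of 1 inbred strain with no transgene. There were 5 CCl4 livers and 5 oil livers, each on an Affymetrix whole-transcript array of its own. All levels below are the deposited log2 intensities, so that a difference of 1 means a doubling, and differences are given as CCl4 minus oil. A whole liver holds every zone and cell type at once. Fewer cells of a type and less RNA per cell cannot be told apart in it.

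Wnt ligands and R-spondins from the endothelium of the central vein act on the nearest hepatocytes, where they keep β-catenin from being destroyed so that it can switch on genes together with TCF/LEF factors. Hepatocytes around the portal vein receive little of this signal and run another programme, which includes urea synthesis, whereas the pericentral cells take up the remaining ammonium and build glutamine from it. CCl4 is converted to its toxic radical by Cyp2e1, an enzyme most abundant in the pericentral hepatocytes, which are the cells first injured by it.

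The 10 arrays correlated with r from 0.959 to 0.990 across probe sets, and array medians lay between 2.54 and 2.66. CCl4 replicate 4 stood apart from the rest, with the lowest array quality weight of 0.459. The circadian clock gene Dbp was at 8.39 and 7.77 in oil replicates 1 and 2 and from 3.42 to 4.04 in the other oil livers, and at 8.72 and 8.08 in CCl4 replicates 1 and 2 against 5.74 to 6.31 in the rest. Of 8 measured hepatocyte markers, 0 differed past the limma threshold, which 0.0900% of all probe sets passed as lower and 0.630% as higher. The mean level of these markers was 11.43 to 11.58 in CCl4 livers and 11.48 to 11.58 in oil livers. Alb, serum albumin, averaged 13.04 and 13.06, near the largest value on the arrays, 13.4. Among the 8, only Apoa2 had groups without overlap, lower in CCl4 livers at -0.14 (limma adjusted p = 0.440), as were 1.16% of all probe sets.

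The promoters show the stretch of DNA just before the start of transcription, where the TCF/LEF core motif CTTTGAT, read on either strand, can be looked for. RefSeq (build GRCm38.p6) gave windows of 250 bases before the start for 6 of the 10 genes. A match was present in Lect2 and Slc1a2, and in 1053 of the 32851 windows of the mouse table, 3.21%. The windows of Glul, Oat, Axin2 and Rnf43, the last with 2 starts, held none. The shorter string CTTTG, chosen after these sequences were seen, was in 48.6% of all windows and, among these genes, again in Lect2 and Slc1a2. Rhbg, Lgr5, Tbx3 and Znrf3 had no window in the table. The match in Lect2 lay 32 to 26 bases before the start. No match in a window of this length says only that these letters are not in it. The windows of the 2 enzymes that were lower in CCl4 livers, of the feedback gene Axin2 and of Lect2 are shown 5′ to 3′ on the strand of the gene, with the TCF/LEF core in capitals. They are chr1:153899679-153899928 on the plus strand for Glul, chr7:132576399-132576648 on the minus strand for Oat, chr11:108920099-108920348 on the plus strand for Axin2 and chr13:56548539-56548788 on the minus strand for Lect2.
Glul: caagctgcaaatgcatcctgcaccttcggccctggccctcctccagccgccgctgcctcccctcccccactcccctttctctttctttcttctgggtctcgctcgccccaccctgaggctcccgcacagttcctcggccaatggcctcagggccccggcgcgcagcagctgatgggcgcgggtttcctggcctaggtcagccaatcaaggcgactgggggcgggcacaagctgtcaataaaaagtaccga
Oat: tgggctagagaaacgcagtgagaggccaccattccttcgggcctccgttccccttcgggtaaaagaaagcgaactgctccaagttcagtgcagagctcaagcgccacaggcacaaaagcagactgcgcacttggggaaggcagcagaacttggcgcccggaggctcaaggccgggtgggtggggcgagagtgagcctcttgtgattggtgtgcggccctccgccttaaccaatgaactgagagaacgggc
Axin2: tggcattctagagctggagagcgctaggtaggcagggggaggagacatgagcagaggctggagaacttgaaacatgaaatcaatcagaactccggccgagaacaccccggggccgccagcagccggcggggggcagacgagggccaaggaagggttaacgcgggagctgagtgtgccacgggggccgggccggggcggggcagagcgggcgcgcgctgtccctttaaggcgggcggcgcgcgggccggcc
Lect2: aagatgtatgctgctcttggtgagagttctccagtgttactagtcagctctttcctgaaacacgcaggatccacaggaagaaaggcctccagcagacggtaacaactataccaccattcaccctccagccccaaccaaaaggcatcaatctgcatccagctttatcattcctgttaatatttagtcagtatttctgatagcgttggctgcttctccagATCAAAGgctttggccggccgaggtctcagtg
The Glul, Oat and Axin2 windows had G or C at 64.8%, 60.0% and 69.2% of their bases, and the Lect2 window at 48.0%.

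The first question was whether the genes of nitrogen handling differed between fibrotic and control livers. Glul encodes glutamine synthetase, which joins ammonium to glutamate in the last hepatocytes before the central vein. Its level in CCl4 livers 1 to 5 was 8.18, 6.64, 6.83, 7.96 and 8.18. The oil livers were at 8.56, 8.77, 8.71, 8.78 and 8.40. Every CCl4 liver lay below every oil liver, with replicates 2 and 3 far below the other CCl4 livers. The mean was 7.56 ± 0.76 with CCl4 and 8.64 ± 0.16 with oil (SD, n = 5 each), a difference of -1.08 ± 0.31 (SE, 95% interval -1.77 to -0.40), or 0.471 of the oil level. The exact two-sided permutation test gave p = 0.00794, the smallest that 5 against 5 arrays allow, whereas limma, Benjamini-Hochberg adjusted across the 23332 probe sets, gave an adjusted p of 0.169. Every gene without overlap gives this permutation p, so it does not measure the spread of single livers. The nearest livers of the 2 groups were at 8.18 and 8.40, while the CCl4 livers alone ran from 6.64 to 8.18. Glul therefore separated the 2 groups but did not pass the threshold of 0.05 across the whole array.

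Oat encodes ornithine aminotransferase, a mitochondrial enzyme that feeds glutamate to glutamine synthesis. It was at 9.04, 7.16, 7.66, 9.38 and 8.35 in CCl4 livers 1 to 5. In oil livers 1 to 5 it was at 10.21, 10.24, 9.42, 9.33 and 10.31. The groups overlapped by 1 pair, since CCl4 replicate 4 lay just above oil replicate 4, and CCl4 replicates 2 and 3 were again the lowest. The means were 8.32 ± 0.93 and 9.90 ± 0.48 (SD, n = 5 each), and the difference of -1.58 ± 0.42 (SE, 95% interval -2.50 to -0.66) was the largest of the 8 genes, 0.334 of the oil level. It had p = 0.0159 in the exact permutation test and an adjusted p of 0.131 in limma.

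Rhbg encodes an ammonium transporter of the hepatocyte membrane and did not share the direction of the enzymes. Its levels were 6.35, 5.52, 6.38, 5.83 and 6.40 in CCl4 livers 1 to 5. The oil livers gave 5.98, 6.09, 5.38, 5.36 and 5.26. The groups overlapped, with oil replicates 1 and 2, the oil livers high in Dbp, above the other 3 oil livers. CCl4 replicates 1 and 2, also high in Dbp, were split at 6.35 and 5.52, with replicate 2 below the other CCl4 livers. The difference was 0.48 ± 0.23 (SE, 95% interval -0.02 to 0.98, exact permutation p = 0.103, limma adjusted p = 0.471), and with the clock genes of each array as a covariate it was 0.36. The part of the clock in these values was not tested.

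Within each liver, Rhbg lay below Glul by a margin that differed between the groups, a comparison chosen after the values were seen and given with no test. The Rhbg level minus the Glul level was -1.83, -1.12, -0.45, -2.14 and -1.78 in CCl4 livers 1 to 5. In oil livers it was -2.58, -2.68, -3.34, -3.41 and -3.14. The groups did not overlap, with means of -1.46 ± 0.68 and -3.03 ± 0.38 (SD, n = 5 each). The same difference taken against Oat ran from -3.55 to -1.28 in CCl4 livers and from -5.05 to -3.97 in oil livers, again without overlap. Glul alone already separated the groups, and Rhbg leaned in the other direction from both enzymes, so the missing overlap is no separate evidence. How many other gene pairs show no overlap was not counted. The 2 probes of such a difference have their own brightness, so only the change between livers can be read from it.

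**Figure D1:**
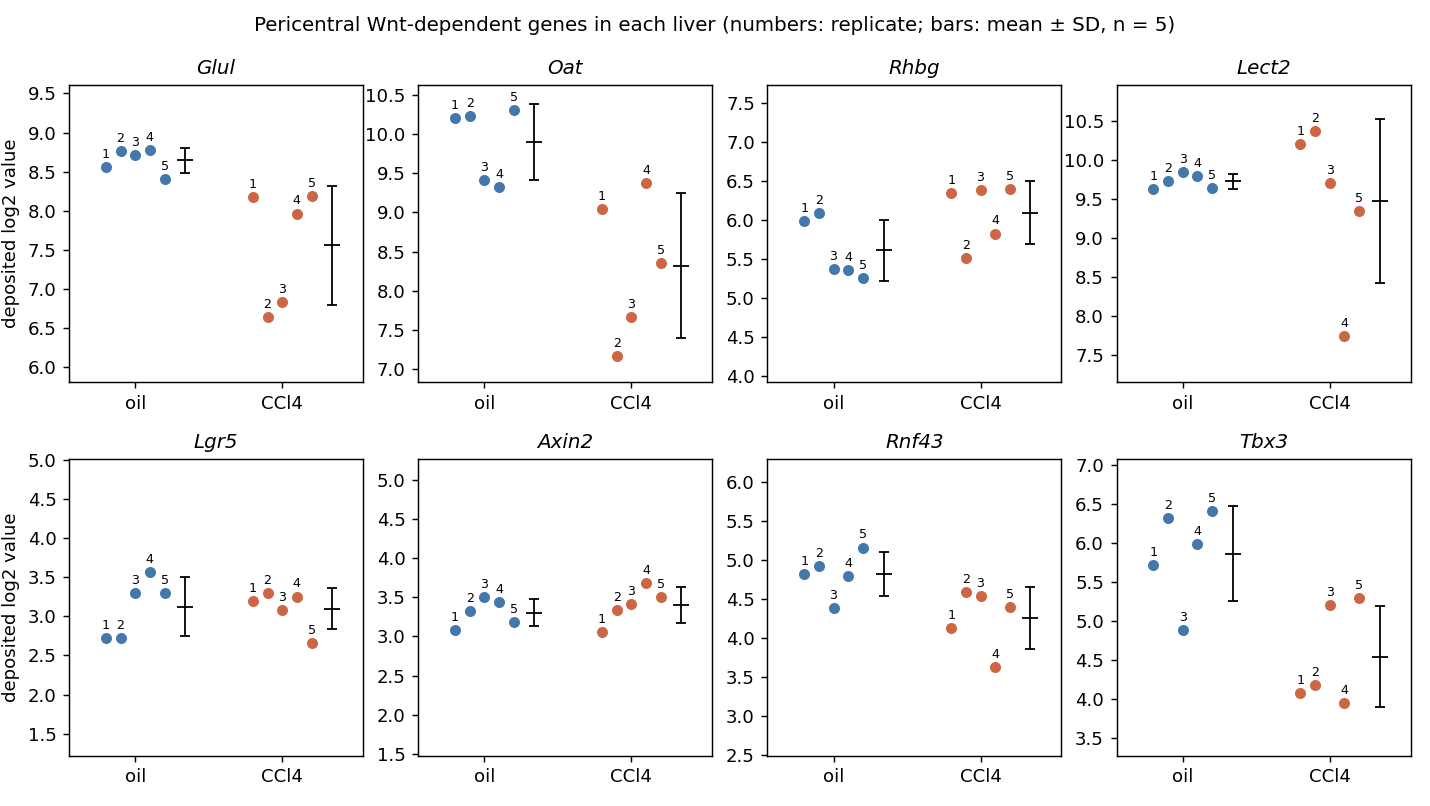
Log2 intensity (vertical axis) of the 8 measured pericentral Wnt-dependent genes in the 5 CCl4 and the 5 oil livers, 1 point per liver with the group mean and SD. Glul separates the groups completely, Oat and Tbx3 overlap through 1 liver on one side, and the values of Lgr5 and Axin2 overlap widely.

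Among the regulators of the pathway, Tbx3 and Rnf43 had 95% intervals below 0, and the intervals of Axin2 and Lgr5 spanned 0. Tbx3, a transcription factor of pericentral hepatocytes and a target of β-catenin, was at 4.08, 4.18, 5.20, 3.95 and 5.30 in CCl4 livers 1 to 5. It was at 5.72, 6.32, 4.88, 5.98 and 6.40 in the oil livers. Oil replicate 3 lay below CCl4 replicates 3 and 5, and all other oil livers were above all CCl4 livers. The means were 4.54 ± 0.65 and 5.86 ± 0.61 (SD, n = 5 each), with a difference of -1.32 ± 0.35 (SE, 95% interval -2.10 to -0.53), or 0.401 of the oil level. The exact permutation p was 0.0238 and the limma adjusted p was 0.142.

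Rnf43 encodes a membrane ubiquitin ligase that removes Wnt receptors from the cell surface and so limits the signal that induces it. The CCl4 livers were at 4.12, 4.59, 4.54, 3.63 and 4.39, and the oil livers at 4.82, 4.92, 4.38, 4.79 and 5.16. As for Tbx3, oil replicate 3 was the only oil liver within the CCl4 range, and CCl4 replicate 4 was the lowest of all. The difference was -0.56 ± 0.20 (SE, 95% interval -1.0 to -0.12), with an exact permutation p of 0.0317 and a limma adjusted p of 0.288. Its level was lower by 1.47-fold, short of the study's minimum of 1.6.

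Axin2, a scaffold of the β-catenin destruction complex that is itself induced by Wnt and serves as a general reporter of the pathway, had nearly the same mean in both groups. It was at 3.06, 3.34, 3.42, 3.69 and 3.51 in CCl4 livers and at 3.08, 3.32, 3.51, 3.44 and 3.18 in oil livers. The 2 ranges lay over each other almost completely. The difference was 0.10 ± 0.13 (SE, 95% interval -0.19 to 0.38, exact permutation p = 0.516, limma adjusted p = 0.869). Axin2 was dim, with an oil mean of 3.31 against a median of 2.58 over all probe sets. A drop as large as that of Glul, Oat or Tbx3 might not show at this level, so the interval does not exclude one.

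Lgr5, the R-spondin receptor that marks the hepatocytes next to the central vein, was at 3.20, 3.30, 3.08, 3.25 and 2.66 in CCl4 livers 1 to 5. The oil livers were at 2.72, 2.73, 3.30, 3.57 and 3.30. The ranges overlapped, and the low oil livers were replicates 1 and 2, the oil pair high in Dbp. CCl4 replicates 1 and 2, also high in Dbp, were at 3.20 and 3.30 and were not low among the CCl4 livers. The difference was -0.02 ± 0.19 (SE, 95% interval -0.45 to 0.40, exact permutation p = 0.849, limma adjusted p = 0.984). Its direction is not settled, since it was 0.083 with the clock genes as a covariate. Axin2 and Lgr5 were the dimmest of the 8 genes, at mean levels from 3.10 to 3.40 against a median of 2.58 over all probe sets. Array intensities near background compress differences, and no detection calls were used here.

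Lect2 encodes a secreted protein of hepatocytes that is induced by β-catenin. It was at 10.21, 10.37, 9.71, 7.74 and 9.35 in CCl4 livers 1 to 5. The oil livers lay within 9.63 to 9.84. The CCl4 livers lay on both sides of this narrow range, 2 above it, 2 below it and 1 inside, with replicate 4 far below all others. The SD was 1.05 in CCl4 livers and 0.094 in oil livers (n = 5 each). The difference was -0.25 ± 0.42 (SE, 95% interval -1.18 to 0.68, exact permutation p = 0.817, limma adjusted p = 0.901), and it turned to 0.18 without CCl4 replicate 4 (limma adjusted p = 0.808).

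Across the 8 genes, 0 passed the limma threshold in either direction, where 0.0900% of all 23332 probe sets were called lower and 0.630% higher. Before adjustment 4 of the 8 had a limma p under 0.05, all lower (Glul, Oat, Tbx3 and Rnf43), as had 4.27% of all probe sets in the lower and 7.03% in the higher direction. The study's own thresholds were a p under 0.05 with no adjustment together with a fold over 1.6, and there 3 of the 8 genes were lower (Glul, Oat and Tbx3) and 0 were higher, against 0.819% and 2.56% of all probe sets. Only Glul had groups that did not overlap, as did 1.16% of all probe sets in the lower and 2.73% in the higher direction. Altogether 6 of the 8 differences lay below 0, with a median of -0.40 beside 0.01 over all probe sets. The mean level over the 8 genes was 5.64 to 6.03 in the CCl4 livers and 6.18 to 6.51 in the oil livers. Oat, Tbx3 and Glul weigh most in it, at -1.58, -1.32 and -1.08, while Rhbg and Axin2 lay above 0. Such a gap was not particular to these genes. Of the lists below, the other pericentral genes also had lower means without overlap (8.24 to 8.67 against 8.73 to 9.02). The secreted inhibitors (2.61 to 2.83 against 2.38 to 2.47) and other Wnt targets (3.09 to 3.83 against 2.82 to 2.99) had higher ones.

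**Figure D2:**
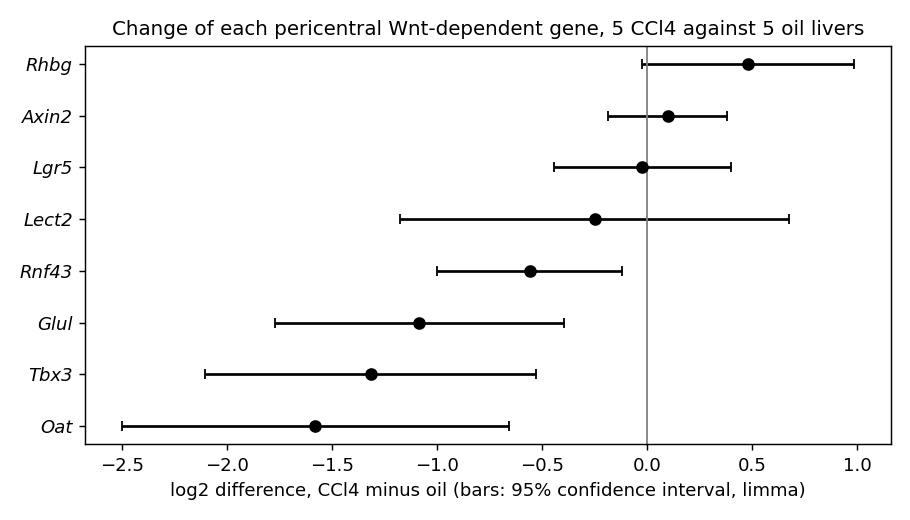
Difference in log2 intensity, CCl4 minus oil, of the 8 measured genes with its 95% interval from limma, 5 livers per group. The intervals of Oat, Tbx3, Glul and Rnf43 lie below 0, that of Rhbg reaches from -0.02 to 0.98, and those of Lect2, Lgr5 and Axin2 span 0.

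The livers did not rank the genes in 1 order. Measured from the oil mean, Glul was at -2.0 and Oat at -2.74 in CCl4 replicate 2, and at -1.82 and -2.24 in replicate 3. In CCl4 replicate 4 they were at -0.68 and -0.52, where Tbx3 and Rnf43 had their lowest values of -1.91 and -1.18. CCl4 replicate 5 had Tbx3 at -0.56 but Oat at -1.55. The enzymes were thus lowest in replicates 2 and 3, and the 2 regulators in replicates 1 and 4. Replicate 4 was also the array with the lowest quality weight, 0.459. Without it the difference of Tbx3 was -1.17 and that of Rnf43 -0.40. The split was not clean, since Tbx3 was at -1.78 in replicate 1 and nearly as low, at -1.68, in replicate 2. Over the deviations of the 10 arrays from their own group means, r was 0.69 between Glul and Oat, 0.73 between Tbx3 and Rnf43 and -0.80 between Rhbg and Lgr5. These values describe 10 arrays that share each array's RNA and scaling, and carry no test.

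**Figure D3:**
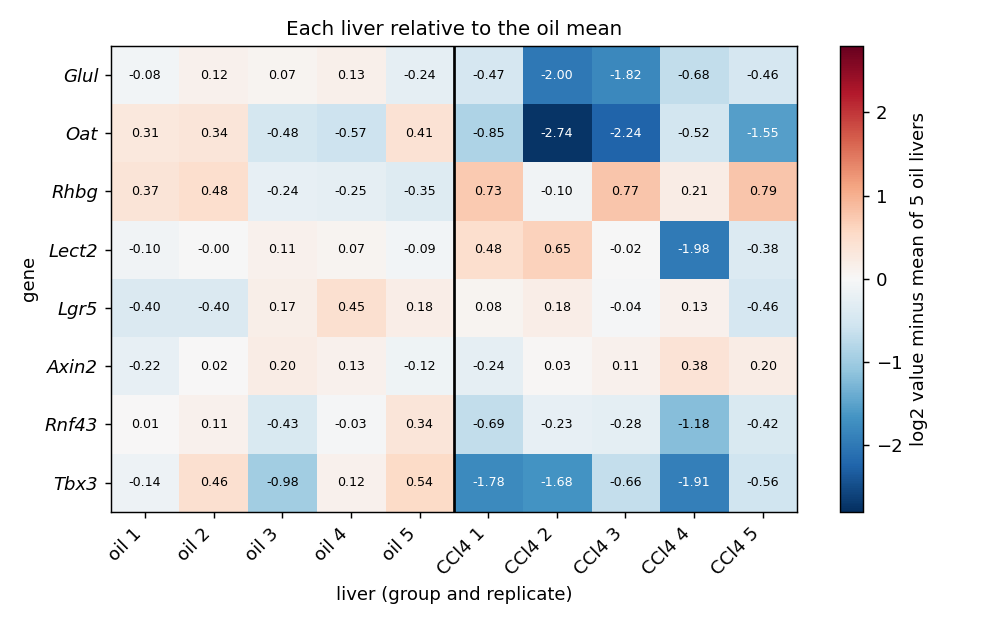
Log2 intensity of each gene in each liver minus the mean of the 5 oil livers, genes in rows and livers in columns, with the value printed in each cell. Glul and Oat are lowest in CCl4 replicates 2 and 3, Tbx3 and Rnf43 in CCl4 replicates 1 and 4, and Lect2 in CCl4 replicate 4. Tbx3 is nearly as low in CCl4 replicate 2 as in replicate 1, and CCl4 replicate 4 is the array with the lowest quality weight.

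By the same measure of likeness, the deviations of 10 arrays from their group means, the genes most like Glul among 8783 compared were Coasy (r = 0.957), Sgf29 (0.943), Cyp2e1 (0.897), Brf1 (0.857) and Mars2 (0.855). Their own differences were small, from -0.31 for Sgf29 to -0.05 for Brf1, and 0 of the 5 passed the limma threshold (adjusted p from 0.313 to 0.918). For Cyp2e1, itself a pericentral enzyme, CCl4 replicates 2 and 3 were the lowest livers at 11.92 and 11.99, as they were for Glul, and the other 8 livers lay from 12.20 to 12.46. The r values above are the highest of 8783 over 10 arrays, are high in part by selection and carry no test. Glul had an SD of 0.76 in CCl4 and 0.16 in oil livers, so the CCl4 livers weigh most in them.

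Oat had a like pattern in Lhpp, a phosphatase gene and another pericentral gene, which was noticed after the values were seen. Lhpp was at 6.90, 5.99, 5.95, 6.94 and 6.61 in CCl4 livers and at 8.23, 8.28, 7.38, 7.15 and 8.42 in oil livers. The groups did not overlap, and in both genes oil replicates 3 and 4 were the low oil livers while CCl4 replicates 1 and 4 were the high CCl4 livers. The difference of Lhpp was -1.41 ± 0.30 (SE, limma adjusted p = 0.0715). Over the deviations of the 10 arrays its r with Oat was 0.90, rank 4 of 8783 genes. In the RefSeq table of GRCm38.p6 the 2 genes are near neighbours on chromosome 7, with 1 protein-coding gene, Nkx1-2, between them.

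The sources of the signal were examined next, from lists of Wnt pathway genes by role. Of 13 measured ligands and agonists, 1 passed the limma threshold and it was higher, with a list median of 0.02. Wls carries Wnt proteins to the cell surface, and its level was 4.01, 4.28, 3.49, 4.20 and 3.64 in CCl4 livers against 2.66, 2.78, 3.14, 3.15 and 2.79 in oil livers. All CCl4 livers lay above all oil livers. Wls rose by 1.02 ± 0.17 (SE, limma adjusted p = 0.0316). This call was lost in 10 of 18 alternatives, among them leaving out CCl4 replicate 1 (0.0744), 2 (0.0553) or 4 (0.0684) or oil replicate 1 (0.0861), 2 (0.0886), 3 (0.0710) or 5 (0.105), with adjusted p from 0.0167 to 0.112 over all alternatives.

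The ligands of the central vein were dim on these arrays. Wnt9b averaged 2.19 in CCl4 and 2.25 in oil livers, below the median of 2.58 over all probe sets, and Wnt2 averaged 3.13 and 3.12, so that a change of either could have gone unmeasured. Wnt2 differed by 0.02 (limma adjusted p = 0.988), Wnt9b by -0.06 (0.903) and the R-spondin Rspo3 by 0.06 (0.934). Among 14 measured genes of the central vein and sinusoidal endothelium 0 passed the limma threshold, with a median of 0.19. At the thresholds of the study 1 was higher, Lyve1, a hyaluronan receptor of the sinusoidal endothelium, at 2.14 (limma adjusted p = 0.213). Its levels were 5.15, 6.53, 5.84, 8.39 and 5.59 in CCl4 livers and 4.35, 3.49, 3.53, 6.04 and 3.39 in oil livers. The groups overlapped through oil replicate 4.

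Of 11 measured receptors and 15 measured genes of the destruction complex and its effectors, 0 passed the limma threshold. The receptors ranged from -0.50 for Fzd7 (adjusted p = 0.295) to 0.32, and the co-receptor Lrp6 was at 0.16 (0.738). The intracellular genes lay between -0.16 and 0.22, with Ctnnb1, β-catenin itself, at 0.20 (0.498) and its DNA-binding partner Tcf7l2 at -0.16 (0.732).

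The secreted inhibitors and the other targets had a few high values. Of 12 measured inhibitors 0 passed the limma threshold. At the thresholds of the study, which 2.56% of all probe sets passed as higher, 3 were higher. Those were Frzb at 1.47 (limma adjusted p = 0.162), Sfrp1 at 1.08 (0.135) and Dkk3 at 0.91 (0.187). Of 8 measured other Wnt targets 0 passed, and the cell cycle gene Ccnd1 (1.41, adjusted p = 0.0960), Myc (1.84, 0.231) and the adhesion receptor Cd44 (0.85, 0.139) were higher at the thresholds of the study. The list medians were -0.02 and 0.03. Each of these genes is also made outside hepatocytes.

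**Figure D4:**
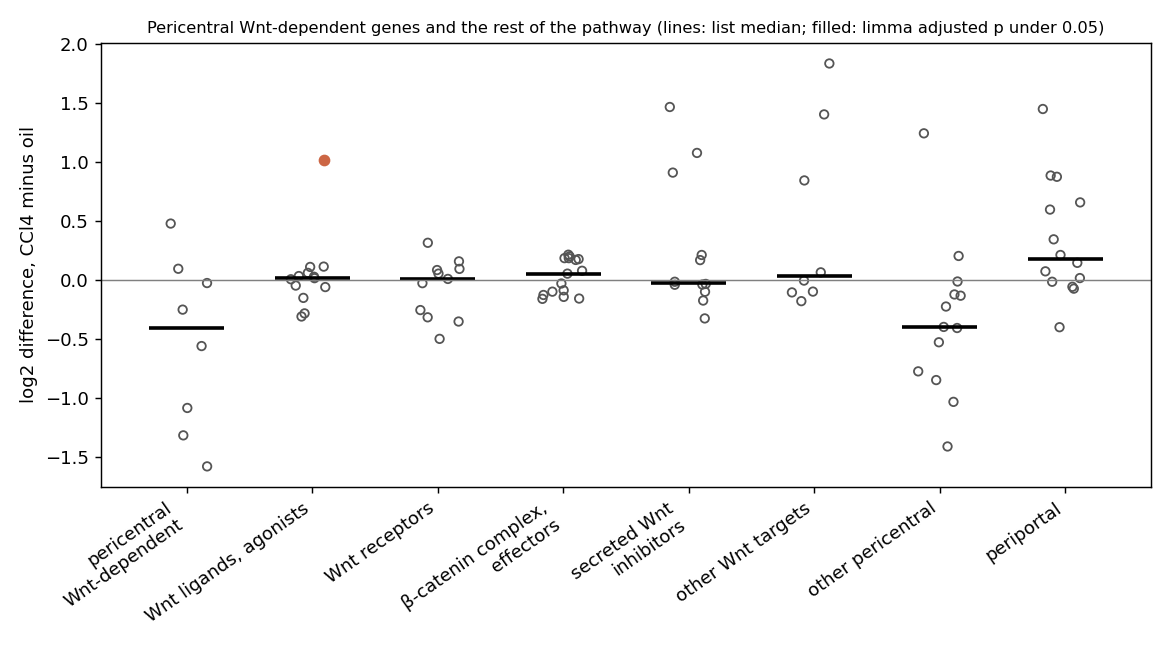
Difference in log2 intensity, CCl4 minus oil, of each measured gene (points) of the pericentral Wnt-dependent genes, of the other Wnt lists and of the zonation lists, with list medians as lines and genes past the limma threshold filled. The 8 pericentral Wnt-dependent genes and the other pericentral genes have medians of -0.40, the Wnt list medians lie near 0 with Wls as the filled point, and the periportal median is 0.18.

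The zonation lists placed these genes beside their neighbours in the lobule. Of 13 measured other pericentral genes, 0 passed the limma threshold, 11 lay below 0 and the median was -0.40, the same as that of the 8 genes. At the thresholds of the study, which 0.819% of all probe sets passed as lower and 2.56% as higher, 4 were lower and 0 higher. They were Lhpp, the lowest, Cyp1a2 at -1.03 (limma adjusted p = 0.195), Nr1i3, a nuclear receptor for foreign compounds, at -0.85 (0.122) and the tight junction gene Cldn2 at -0.77 (0.389), the last named after its values were seen. The bile acid enzyme Cyp27a1 was at -0.53 (0.130) and Cyp2e1 at -0.22 (0.401). Of 14 measured periportal genes, from 19 listed, 0 passed the limma threshold, 10 lay above 0 and the median was 0.18. Not measured, and so without values here, were Cps1, Ass1, Gls2, Sds and Apoc2. At the thresholds of the study 3 of the 14 were higher and 0 lower. The 3 were Aldh1b1, Cdh1 and Ctsc, a lysosomal protease at 0.89 (limma adjusted p = 0.208) that was named after its values were seen. Which cells made these transcripts cannot be told from whole liver. The periportal genes with the smallest adjusted p were Aldh1b1 (1.45, limma adjusted p = 0.0940), Cdh1 (0.88, 0.121) and Hsd17b13 (0.60, 0.144), and Cyp2f2, an abundant periportal enzyme, was at -0.06 (0.919). These medians are descriptions, and their difference was not tested.

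Many markers of stellate cells and some of macrophages were higher in CCl4 livers, and others were not. Of 10 measured markers of activated stellate cells and fibroblasts 7 rose past the limma threshold. The list level, the mean log2 value over the 10 markers in each liver, was 6.42 to 7.69 in CCl4 livers and 4.58 to 5.35 in oil livers. Lum, a matrix proteoglycan, rose by 3.06 (limma adjusted p = 0.00322). Of 9 measured macrophage markers 3 rose past the limma threshold, at a list level of 5.03 to 6.72 against 3.90 to 4.16. In the same list 2 markers lay below 0, the lower at -0.15. The 7 stellate cell calls became 4 without CCl4 replicate 1 and 3 without oil replicate 1, 2, 3 or 5. The 3 macrophage calls became 1 without CCl4 replicate 1 or 4 or any oil liver, and 5 without CCl4 replicate 5. The stellate cell calls were 2 with the replicate block, 3 with the clock covariate and 1 by the methods' t-test, and the macrophage calls were 1 in each of these. Of 4 measured bile duct markers 0 passed and 1 lay below 0, at -0.32, with a list level of 2.38 to 2.97 against 2.27 to 2.59. No marker of any list was at 0. The part of these cells in the values of Glul, Oat, Tbx3 and Rnf43 was not tested.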

How the data were processed

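Total liver RNA (Trizol) of 5 CCl4 and 5 oil mice was amplified with the Ambion whole-transcript kit and hybridised to Affymetrix arrays. The methods give the type as Mouse Gene ST 1.0. The series text and the probe annotation, which was followed, give Mouse Exon 1.0 ST. The authors deposited a table of 23332 probe sets with 1 log2 value for each array. The log2 scale was inferred from the largest value, 13.4, which exceeds the natural logarithm of the scanner maximum (11.1). The methods name GenePix for image processing, and how the values were then normalized and summarised is not given in the sources used here. Precision is limited by the number of arrays.

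Symbols came from the platform annotation, with 14996 probe sets naming 1 gene, 1019 several and 7317 none. The brightest probe set of a gene, by its mean over the 10 arrays, stood for it. CCl4 was compared with oil by limma 3.58.1 in R 4.3.3 (lmFit, eBayes) on the values as deposited. Adjusted p-values (Benjamini-Hochberg, all probe sets) under 0.05 were called. Single genes were also compared by exact two-sided permutation over the 252 splits of the arrays. The labels describe biological replicates, 1 liver each. The 10 genes and the lists were chosen with earlier results of these data known. From the lists, genes past the limma threshold, up to 3 genes per list by lowest adjusted p and a few preset ligands, receptors and enzymes could be named, and any other name is marked. A part of these is named. Alternatives were quantile normalization, median centring, a block for the replicate number, brighter probe sets only, array quality weights, Dbp minus Arntl as a covariate, the methods' t-test, the mean of a gene's probe sets, and each liver left out in turn. Promoter windows came from RefSeq and were cut to the 250 bases before the start.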

Additional observations from a re-analysis of the deposited data

Results flagged for a closer look

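In 120 groups of 5 livers, from 60 named genes, 10 held a liver far from the other 4, where chance would mark about 1 in 20 groups, and 0 of the 10 concerned the 8 pericentral Wnt-dependent genes. CCl4 replicate 4 was apart for Cyp1a2, at 9.03 with the other CCl4 livers from 10.65 to 10.87, for Sfrp1, at 2.42 against 3.69 to 4.14, and for Dvl1, at 5.92 against 5.68 to 5.71. CCl4 replicate 2 was apart for Col1a2, at 8.47 against 6.62 to 7.09, for Pdgfrb, at 6.00 against 5.0 to 5.20, and for Cd44, at 4.0 against 2.61 to 2.90. CCl4 replicate 5 was apart for Epcam, at 2.69 against 2.10 to 2.26, and for Wnt9b, at 2.46 against 2.08 to 2.16. CCl4 replicate 1 was apart for Sox9, at 3.78 against 4.34 to 4.53. Oil replicate 5 was apart for Aldh1b1, at 5.63 against 5.09 to 5.20.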

How the results depend on the processing

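Under all 18 alternatives 0 of the 8 genes passed the limma threshold, and the same 3 genes, Glul, Oat and Tbx3, were lower at the thresholds of the study. Glul stayed between -1.24 and -0.86, Oat between -1.85 and -1.29, Tbx3 between -1.56 and -1.17, Rnf43 between -0.67 and -0.40 and Rhbg between 0.36 and 0.62, with lowest adjusted p of 0.100, 0.0726, 0.0816, 0.204 and 0.315. The genes with groups that did not overlap became 2 (Glul and Oat) under median centring, and leaving out single livers gave 1 to 3, with 3 (Glul, Tbx3 and Rnf43) without oil replicate 3 and 2 (Glul and Oat) without CCl4 replicate 4 or oil replicate 4. The median of the 8 genes ran from -0.56 without CCl4 replicate 2 to -0.23 without CCl4 replicate 4. Lgr5 turned to 0.083 with the clock covariate, 0.085 without CCl4 replicate 5, and 0.019, 0.087 and 0.020 without oil replicates 3, 4 and 5, within -0.13 to 0.087 over all livers left out. Lect2 ran from -0.47 without CCl4 replicate 2 to 0.18 without CCl4 replicate 4. The causes were not tested. With the replicate number as a block Glul had a limma adjusted p of 0.262. The median was -0.40 as before, since each number has a liver in both groups and the block then cannot move a difference. The labels do not say that a number marks a shared litter or day, and same-numbered livers deviated with r from -0.04 to 0.16. Replicates 1 and 2 of both groups nevertheless shared a clock state, with Dbp minus Arntl from 4.35 to 5.56 against -2.62 to 1.61 in the other livers. Over all probe sets, 147 higher and 21 lower calls became 30 and 6 with the block, 45 and 9 with the clock covariate, 12 and 2 by the methods' t-test, 192 and 39 with quantile normalization, 145 and 36 with median centring and 251 and 47 among brighter probe sets, and leaving out single livers gave 30 to 259 and 5 to 40. Signal over background is unknown, so small differences of the dim genes Lgr5 and Axin2 were not detectable with certainty.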

Other observations

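Cyp7a1, the rate-limiting enzyme of bile acid synthesis and a pericentral gene, was singled out after its values were seen. It was at 7.42, 9.63, 10.24, 10.06 and 7.72 in CCl4 livers and at 9.43, 9.89, 5.62, 6.09 and 7.80 in oil livers. The groups overlapped widely, with a difference of 1.25 ± 0.92 (SE, limma adjusted p = 0.694). Oil replicates 1 and 2, the oil livers with high Dbp, held the high oil values. CCl4 replicates 1 and 2, also high in Dbp, were at 7.42 and 9.63, and 7.42 was the lowest CCl4 value.

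The tight junction gene Cldn2, named above, was at 3.47 in CCl4 replicate 4 and from 4.58 to 4.98 in the other CCl4 livers. In oil livers it was at 4.69 and 4.60 in replicates 1 and 2 and from 5.57 to 5.77 in the others. Its difference was -0.77 (limma adjusted p = 0.389). Notum, an enzyme that inactivates Wnt proteins and is itself a target of the pathway, was at -0.32 (0.422), and the feedback inhibitor Nkd1 at -0.10 (0.802).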
